A study of Arabidopsis thaliana with 4 samples.

Results

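The nucleosomes described here were called on the chromosome arms of Arabidopsis thaliana in both top1a-2 libraries and at no matching place in either Ler library. A member is a call of top1a-2 replicate 1 that lies over 2.5 Mb from the assumed centromere midpoint of its chromosome (15, 3.6, 14, 4 and 12 Mb on chromosomes 1 to 5), has a call of top1a-2 replicate 2 within 20 bp, and has no call of Ler replicate 1 or Ler replicate 2 within 73 bp. There were 9136 such calls among the 275443 arm calls of that list and the 335395 calls of the whole list, and the 4 lists together held 1253289 calls. Since the calls of all 4 libraries chose the members, none was left over for a test, and everything below is a description of these libraries.

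Micrococcal nuclease sequencing was done on nuclei from inflorescences with unopened buds. All 4 libraries came from plants of the accession Landsberg erecta, 2 from Ler itself and 2 from top1a-2, whose samples are titled TOP1α. The labels give no age, do not say what lesion the allele is or whether it leaves any protein, and do not say whether replicates came from separate pools of plants. Each deposited list gives for every call a position, a fuzziness (the spread of the position), a size and a confidence score of the authors' caller. Beside the 335395 calls of top1a-2 replicate 1, the list of top1a-2 replicate 2 had 315609, that of Ler replicate 1 had 315744 and that of Ler replicate 2 had 286541. Read depth is unknown, so a call that is missing from a list may be a nucleosome that was absent, or one that was not called.

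A nucleosome is DNA wrapped around a core of histone proteins, and micrococcal nuclease cuts the linker DNA between the cores, so that protected fragments mark where they sit. TOP1α is a DNA topoisomerase I, which nicks 1 strand and lets the helix turn, releasing the supercoils that form when polymerases move along DNA and when DNA is wrapped around or freed from histones. In Arabidopsis, mutants of TOP1α are known for altered shoot and floral meristems and for a changed arrangement of organs around the stem. The design asks how nucleosome density in top1a-2 compares with that in Ler.

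The number of members was set beside crossed pairings of the same list of positions, in which the partner is a Ler library and the call is absent from the other top1a-2 library and the other Ler library. The libraries of a crossed pairing differ in genotype, as 1 is top1a-2 and the other Ler, though both are of the same accession. Of the arm calls of top1a-2 replicate 1, 9136 (3.32%) were shared with top1a-2 replicate 2 only, 9798 (3.56%) with Ler replicate 1 only and 6486 (2.35%) with Ler replicate 2 only. The members were thus 662 fewer than the crossed pairing with Ler replicate 1, 0.932 times its number, and 1.41 times the number of the crossed pairing with Ler replicate 2. Against the mean of the crossed pairings, 8142, the ratio was 1.12. The lists of top1a-2 replicate 2 (257078 arm calls) and Ler replicate 1 (256502 arm calls) were nearly equal in number, so the first of these comparisons was made between partner lists of almost the same length. Ler replicate 2 had the shortest list, with 230949 arm calls. When each whole list was cut to an equal number of its highest-scoring calls, the order stayed the same. There were then 7681 members, 8308 calls shared with Ler replicate 1 only and 5844 shared with Ler replicate 2 only. With positions from this list, the count of calls that both mutant libraries share apart from Ler thus lay below 1 crossed pairing and above the other.

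**Figure D1:**
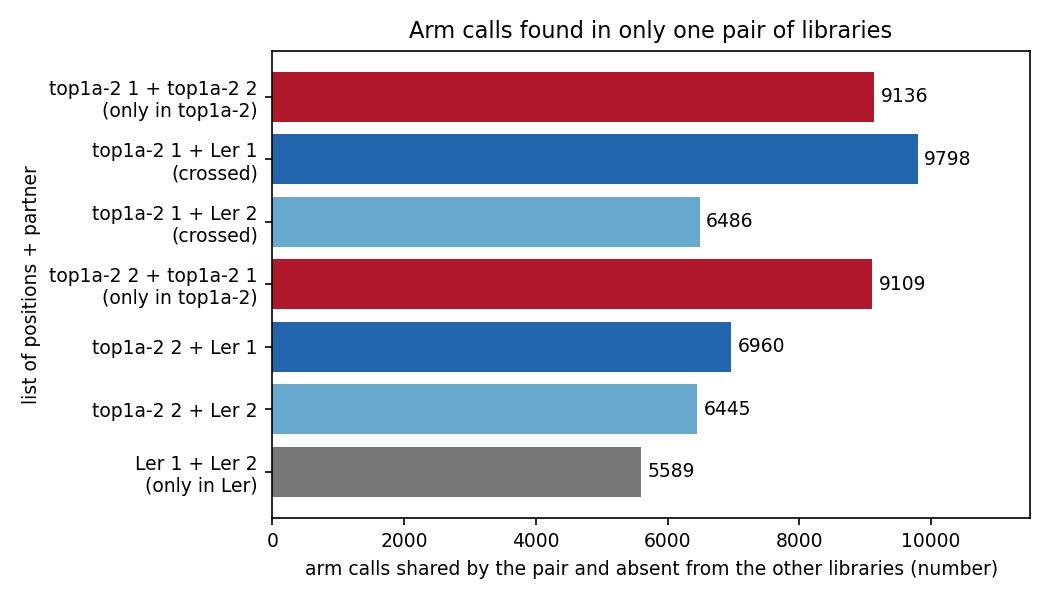
Bars give the number of arm calls shared by a pair of libraries within 20 bp and absent within 73 bp from the remaining libraries; the first library of each label is the list the positions came from. The members (9136) lie between the crossed pairings of the same list (9798 and 6486), while with positions from top1a-2 replicate 2 the mutant pair (9109) stands above both pairings with Ler (6960 and 6445).

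The comparison came out differently when positions were taken from top1a-2 replicate 2. That list gave 9109 calls shared with top1a-2 replicate 1 only, 3.54% of its arm calls. It shared 6960 calls (2.71%) with Ler replicate 1 only and 6445 (2.51%) with Ler replicate 2 only, so that here the mutant pair was above both, by 1.31 and 1.41 times. The pairing that stood highest, 9798 calls, joined top1a-2 replicate 1 and Ler replicate 1, which carry the same replicate number. The other pair with a shared number, top1a-2 replicate 2 with Ler replicate 2, gave 6445 calls. That was the fewest among the pairings of a top1a-2 with a Ler library. The labels attach no batch or day to the numbers, and whether the numbers play a part in this was not tested. The opposite set, calls of Ler replicate 1 shared with Ler replicate 2 only, numbered 5589 (2.18%), the fewest of any pair. The 9136 members were 1.63 times as many. That set joined the shortest list, Ler replicate 2, with Ler replicate 1 and required absence from the longest, top1a-2 replicate 1. Without Ler replicate 1 or Ler replicate 2, 22193 and 18869 of the 275443 arm calls of top1a-2 replicate 1 met the rest of the rule. When a partner was not asked for, 67456 of these 275443 arm calls were absent from both Ler lists. The same held for 61800 of the 257078 arm calls of top1a-2 replicate 2. Crossed pairings were not counted under these looser rules, so the numbers have nothing to be set beside.

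The rule has 2 steps, and with positions from top1a-2 replicate 1 the members stood between the crossed pairings in each. A call of top1a-2 replicate 2 lay within 20 bp of 62167 arm calls of top1a-2 replicate 1 (22.6%), a call of Ler replicate 1 of 63096 (22.9%) and a call of Ler replicate 2 of 55414 (20.1%). Of those partnered calls, 14.7%, 15.5% and 11.7% had no call within 73 bp in the remaining libraries. With positions from top1a-2 replicate 2 the mutant pair was above both pairings with Ler in each step. Partners were found for 24.2% of its arm calls, against 21.8% and 21.2% with Ler replicates 1 and 2. Of those, 14.7%, 12.4% and 11.8% were absent from the remaining libraries. Every member had a partner call of its own, 9136 in all. The distance between the mutant calls was 9.92 ± 5.88 bp (SD over the 9136 members) with a median of 10 bp, and the median was also 10 bp in both crossed pairings. The middle of the distances from 0 to 20 bp is 10 bp, so the partner calls spread over the whole window with at most a slight gathering at its centre. Of the members, 2129 had their partner at 0 to 4 bp and 2050 at 16 to 20 bp. A distance of 0 is a single position and every other distance has a position on either side. The slightly larger count at 0 to 4 bp thus came from fewer positions. Another 1974 calls just outside, with the nearest partner at 21 to 25 bp, would have joined with a wider window. At the other limit, 1609 members had their nearest Ler call at 74 to 83 bp, and 2052 partnered calls missed the rule with a Ler call at 64 to 73 bp. The median score was 0.813 just inside this limit and 0.832 just outside, the median fuzziness 38 bp in each.

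The members were ordinary nucleosome calls with slightly low scores. The confidence score, whose scale is the caller's own, had a median of 0.771 in top1a-2 replicate 1, with 10th and 90th percentiles of 0.324 and 1.54, against 0.826 for all arm calls of that list. In top1a-2 replicate 2 the partner calls had a median of 0.741, against 0.788 for all arm calls there. The crossed pairings gave 0.803 and 0.769 in top1a-2 replicate 1, so the members lay between them here too. Of the members, 28.9% were in the lowest 25% of arm scores and 21.4% in the highest in replicate 1, and 28.2% and 22.7% in replicate 2. In both libraries at the same time, 14.5% of the members were in the highest 25% and 20.4% in the lowest. For the crossed pairings the shares in the highest 25% of both libraries were 15.4% and 14.1%. Counted the other way, 3.83% of the arm calls in the lowest 25% by score were members, then 3.43% and 3.16%, and 2.84% of those in the highest 25%. The crossed pairing with Ler replicate 1 went from 3.82% to 3.36%, and that with Ler replicate 2 from 2.77% to 2.18%.

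Fuzziness describes how far the fragments of a nucleosome scatter around its position, so that a low value marks a well-fixed nucleosome. Its median was 38 bp for the members in top1a-2 replicate 1 and 39 bp for their partners in replicate 2, where all arm calls had medians of 39 bp each. The crossed pairings had 38 and 39 bp in replicate 1. Narrow positions, here those with at most 25 bp of fuzziness, were 12.5% of the members in replicate 1 and 9.29% in replicate 2, against 10.4% and 7.29% of all arm calls of these lists. In the crossed pairings, 11.9% of the calls were narrow in replicate 1 in each. Members narrow in both libraries made up 4.15%, beside 3.32% and 2.79% in the crossed pairings, whose Ler partners came from lists with fewer narrow calls (5.80% and 4.77% of the arm calls of Ler replicates 1 and 2).

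The members had the length of a mononucleosome. Their median size was 143.2 bp in top1a-2 replicate 1, with 10th and 90th percentiles of 116.4 and 173.1 bp, and 141.2 bp in replicate 2, against 144.7 and 142.9 bp for all arm calls. The crossed pairings had medians of 144.0 and 143.6 bp in replicate 1. Short calls under 100 bp were 3.70% of the members and long calls over 200 bp 2.01% in replicate 1, against 3.79% and 2.41% of all arm calls. In replicate 2 these shares were 2.71% and 1.69%, against 3.14% and 1.96%. The votes of the forward and the reverse strand, which the caller gives for each call, were over 2 times apart for 40.6% of the members in replicate 1 and 29.0% in replicate 2. All arm calls gave 41.0% and 29.2%, so the imbalance of the strands went with the library and not with membership.

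**Figure D2:**
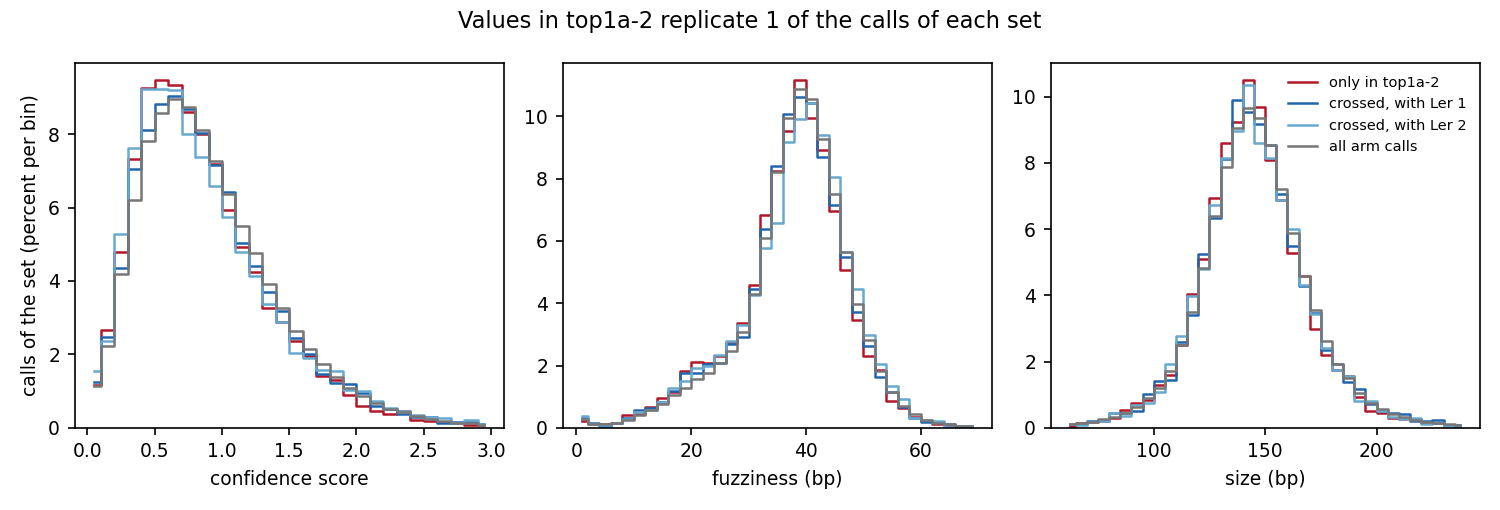
Lines give the percent of calls per bin of confidence score, fuzziness (bp) and size (bp) in top1a-2 replicate 1 for the members, the crossed pairings and all arm calls. The curves nearly coincide, with member medians of 0.771, 38 bp and 143.2 bp beside 0.826, 39 bp and 144.7 bp for all arm calls.

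In the mutant libraries the members had close neighbours slightly more often than other calls. The nearest other call of the same list lay at a median of 253 bp in top1a-2 replicate 1 and 270 bp in replicate 2, against 267 and 291 bp for all arm calls. It was under 200 bp away for 22.7% of the members in replicate 1 and for 17.8% in replicate 2, where all arm calls gave 20.3% and 15.5%. In replicate 1 the crossed pairings had 19.7% with Ler replicate 1 and 22.5% with Ler replicate 2, so the members were above both by a small margin. The Ler partner calls of the crossed pairings were also above all arm calls of their own lists. They had 14.8% against 13.3% in Ler replicate 1 and 13.3% against 11% in Ler replicate 2. The gap between the calls flanking a member had a median of 593 bp in replicate 1 and 627 bp in replicate 2, against 631 and 675 bp for all arm calls and 608 and 607 bp for the crossed pairings in replicate 1. Within 1 kb on either side stood on average 5.53 other calls in replicate 1 and 5.18 in replicate 2, beside 5.38 and 5.01 for all arm calls.

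At most members a Ler call lay within 150 bp. Because the rule keeps Ler calls out of the nearest 73 bp, the distance to the next one starts at 74 bp by construction. Its median was 129 bp in Ler replicate 1 and 139 bp in Ler replicate 2. Of the members, 2453 (26.8%) had a call of Ler replicate 1 at 74 to 100 bp, 3404 (37.3%) over 100 and up to 150 bp away, 2066 (22.6%) up to 200 bp, 1126 (12.3%) up to 300 bp and 87 (0.952%) beyond. In Ler replicate 2 the last class, beyond 300 bp, held 223 members (2.44%). Taking the nearer of the Ler calls, 41.6% of the members were within 100 bp of 1 and 38.7% over 100 and up to 150 bp away. Only 1801 members (19.7%) were over 150 bp, roughly the length of a nucleosome, from the calls of both Ler lists. The libraries that lacked the call in the crossed pairings behaved in the same way, with 21.5% and 15.4% over 150 bp from both.

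The interval between the neighbours of a member held a Ler call at most members. Between the left and the right neighbour of a member in top1a-2 replicate 1, Ler replicate 1 had no call at 255 members (2.79%), exactly 1 call at 3454 (37.8%) and 2 or more at 5426 (59.4%). Ler replicate 2 had none at 416 (4.55%), 1 at 4282 (46.9%) and 2 or more at 4437 (48.6%). Top1a-2 replicate 2, which always had the partner there, had 1 call at 38.1% and 2 or more at 61.9%, close to the shares in Ler replicate 1. Only 59 members (0.646%) sat in an interval with no call in either Ler library. The shares in the crossed pairings were 0.684% and 0.432%. Around all arm calls of the list, intervals drawn in the same way had no call of Ler replicate 1 at 1.12%, none of Ler replicate 2 at 2.39% and none of either at 0.205%. These intervals span more than the usual distance between calls, so a Ler call within one does not tell whether a nucleosome was shifted or was missing at the member.

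Averaged over all members, Ler calls were densest right at the edge of the excluded zone. At 80 to 100 bp from a member, Ler replicate 1 had 5.05 calls per kb, 1.92 times its density at 500 to 1000 bp (2.64), and Ler replicate 2 had 4.32, 1.82 times its 2.37. The mutant calls had their highest density farther out, at 260 to 280 bp in top1a-2 replicate 1 (4.28 calls per kb, 1.36 times) and at 320 to 340 bp in replicate 2 (3.91, 1.31 times). In the crossed pairing with Ler replicate 1 the roles followed the partner and not the genotype. There top1a-2 replicate 2, as an absent library, peaked at 80 to 100 bp with 1.81 times its far density, and Ler replicate 1, as the partner, at 300 to 320 bp with 1.40 times. Farther out, at 500 to 1000 bp, the absent libraries stayed lower around members than around all arm calls, at 2.64 against 2.82 calls per kb in Ler replicate 1 and 2.37 against 2.54 in Ler replicate 2. In the crossed pairing with Ler replicate 1 the absent libraries showed it too, with 2.67 against 2.83 calls per kb in top1a-2 replicate 2 and 2.37 against 2.54 in Ler replicate 2.

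**Figure D3:**
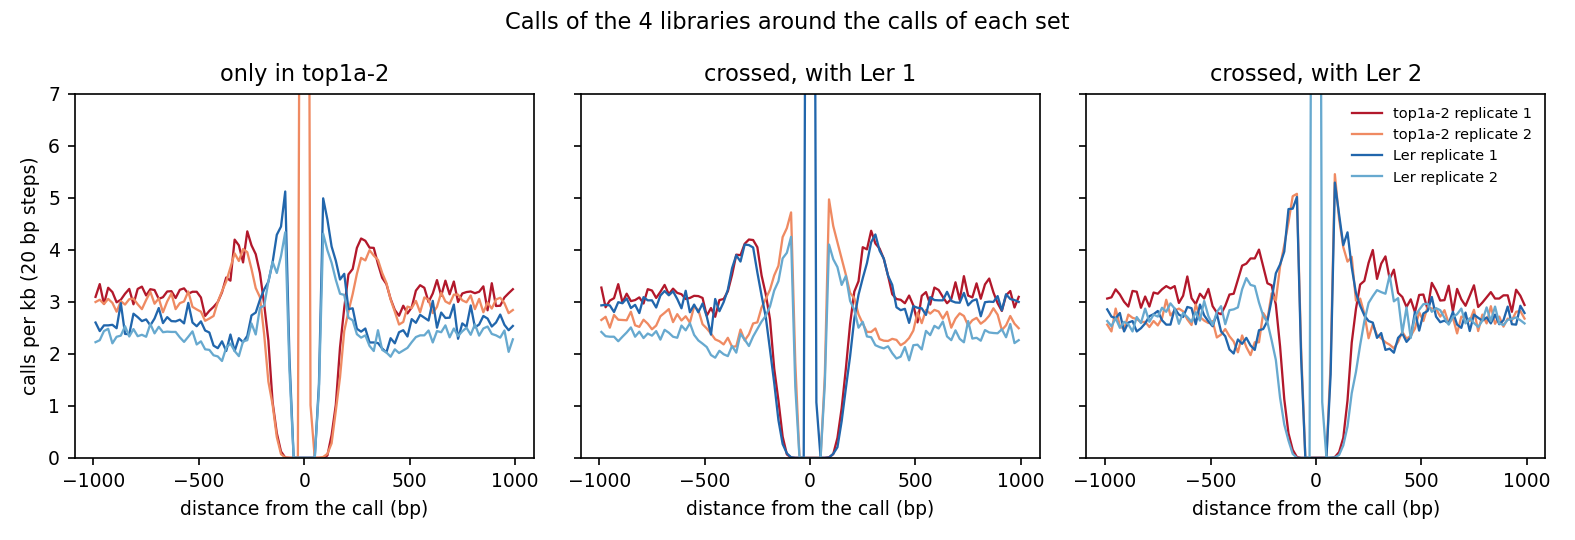
Lines give the calls per kb of each library in steps of 20 bp against the distance (bp) from the members (left) and from the calls of the crossed pairings (middle and right), without the call itself; the peak of the partner library at the centre is cut off by the axis. Absent libraries peak at 80 to 100 bp and the libraries that share the call at 260 to 360 bp, in all 3 panels. These places cannot be read apart from the rule, which keeps absent libraries out of the nearest 73 bp.

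The neighbours of a member were also shared by the mutant libraries more often than those of all arm calls. At 1139 members (12.5%) both neighbouring calls of top1a-2 replicate 1 had a call of top1a-2 replicate 2 within 20 bp, while this held for 5.71% of all arm calls. With Ler replicate 1 and Ler replicate 2 it held for 2.24% and 2.08% of the members, against 5.86% and 4.81% of all arm calls. At least 1 neighbour was matched by top1a-2 replicate 2 at 52.5% of the members, by Ler replicate 1 at 30.0% and by Ler replicate 2 at 28.3%. The crossed pairings showed as much with their own partners, at 13.2% and 11.9% for both neighbours. Members were chosen for a match in top1a-2 replicate 2 and none in Ler, while only 22.6% of all arm calls had such a match. The contrast with all arm calls thus cannot be read apart from the rule. Some members also faced a nucleosome of the reverse kind, called in both Ler libraries and in neither mutant library. Such a call lay within 150 bp of 1080 members (11.8%), and the corresponding shares were 13.2% and 14.1% for the crossed pairings and their opposite pairs. The share for all arm calls was not counted.

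Most members stood alone in their list. Of the 9136, 7540 (82.5%) had no member as the next call on either side, 700 runs were pairs, 53 runs had 3 members, 8 had 4 and 1 had 5. Members in runs made up 17.5%, beside 17.9% and 13.3% in the crossed pairings, which reached runs of 4 as well (14 and 1 of them). Only 3.32% of the arm calls were members, and calls this rare mostly stand alone even where they are placed independently. The 82.5% thus does not show an even scatter, and the share for independent placing was not computed. The run of 5 spanned 1045 bp of chromosome 1, between positions 28274402 and 28275447 as the lists number them. From end to end it held 5 calls in each top1a-2 library and 2 in each Ler library, with the nearest Ler call 110 bp from a member. Its scores were low to moderate, 0.177 to 0.996 in replicate 1 and 0.157 to 0.581 in replicate 2. Of the runs of 4, the one with the highest mean score lay on chromosome 3 from 18611949 to 18613521, with scores of 1.36 to 2.24 in replicate 1 and 1.60 to 2.48 in replicate 2. The next lay on chromosome 4 from 16447002 to 16448282, with scores of 1.02 to 3.04 and 0.767 to 2.13. Each of these held 4 calls in each top1a-2 library and 3 in each Ler library. These spans begin and end at a member, where the rule keeps Ler calls away, so their numbers of calls say nothing of density.

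The 5 members whose lower score was highest were chosen by their values and are given as examples. The first was a call on chromosome 2 at position 1106 in replicate 1 and 1107 in replicate 2, with scores of 15.3 and 13.0. Its sizes of 301.7 and 292.2 bp were far above the mononucleosome length. The nearest calls of Ler replicates 1 and 2 were 154 and 152 bp away. The second lay on chromosome 1 at 9506637 and 9506643, with scores of 4.03 and 4.58, fuzziness of 29 and 35 bp and sizes of 169.0 and 183 bp. Its nearest Ler calls were 136 bp away in replicate 1 and 103 bp in replicate 2. The third lay on chromosome 1 at 3394534 and 3394543, with scores of 3.93 and 5.88, sizes of 131.2 and 129.3 bp and Ler calls 153 and 116 bp away. The fourth was again at the start of chromosome 2, at 1402 in both lists, with scores of 4.76 and 3.73. It had a fuzziness of 2 and 3 bp, a size of only 14.6 and 15 bp and Ler calls 142 and 144 bp away. The fifth, on chromosome 1 at 6499204 and 6499218, scored 3.9 and 3.6, with sizes of 133.5 and 151.5 bp and Ler calls 84 and 133 bp away. Both calls at the start of chromosome 2 thus had sizes unlike a nucleosome, and the 3 on chromosome 1 had sizes from 129.3 to 183 bp. Genes and sequences at these positions are not given, since no genome of the build of the lists was used here.

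Members were spread over the arms in proportion to the calls there. They made up 3.28% of the arm calls of top1a-2 replicate 1 on chromosome 1 (2438 members), 3.34% on chromosome 2 (1442), 3.45% on chromosome 3 (1859), 3.23% on chromosome 4 (1285) and 3.28% on chromosome 5 (2112). On every chromosome the number lay between those of the crossed pairings, and the ratio to their mean ran from 1.09 on chromosome 4 to 1.16 on chromosome 2. Among the 10 arms the share ran from 3.08% on the short arm of chromosome 2 before its midpoint (97 members) to 3.53% on the corresponding arm of chromosome 4 (160 members). From 2.5 to 5 Mb from the midpoint 3.14% of the arm calls were members, from 5 to 7.5 Mb 3.32%, from 7.5 to 10 Mb 3.41% and beyond 10 Mb 3.38%. The crossed pairing with Ler replicate 1 went from 3.31% nearest the midpoint to 3.66% in the last class, and that with Ler replicate 2 from 2.33% to 2.42%. Within 500 kb of the chromosome starts 3.71% of the arm calls were members (281 of 7578), and within 500 kb of the last calls 3.11% (236 of 7596). At the starts the members were close in number to the crossed pairing with Ler replicate 1 (277), and at the other ends below it (285).

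In 97 windows of 1 Mb the share of members had a median of 3.25% and ran from 2.52% to 4.55%. The crossed pairings ran from 2.42% to 5.37% and from 1.81% to 3.12%. The number of members lay between the crossed pairings in 67 windows, above both in 27 and below both in 3. In 922 windows of 100 kb the median number was 10 members, with a lowest value of 1 and a highest of 23, and the crossed pairings reached 24 and 23. The window with the largest excess over the mean of the crossed pairings lay on chromosome 3 from 6800001 to 6900000. It held 23 members beside 11 and 1 calls of the crossed pairings with Ler replicates 1 and 2. In all, 294 and 277 calls of the mutant lists and 262 and 246 calls of the Ler lists fell in it, replicate 1 first. The next lay on chromosome 2 from 15000001 to 15100000, with 22 members beside 10 and 0, and on chromosome 1 from 26400001 to 26500000, with 19 members beside 3 and 6. These windows were picked as the extremes of 922, in which the excess ran from -10 to 17 with a median of 1, and members were in excess in 517 windows and in deficit in 366.

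**Figure D4:**
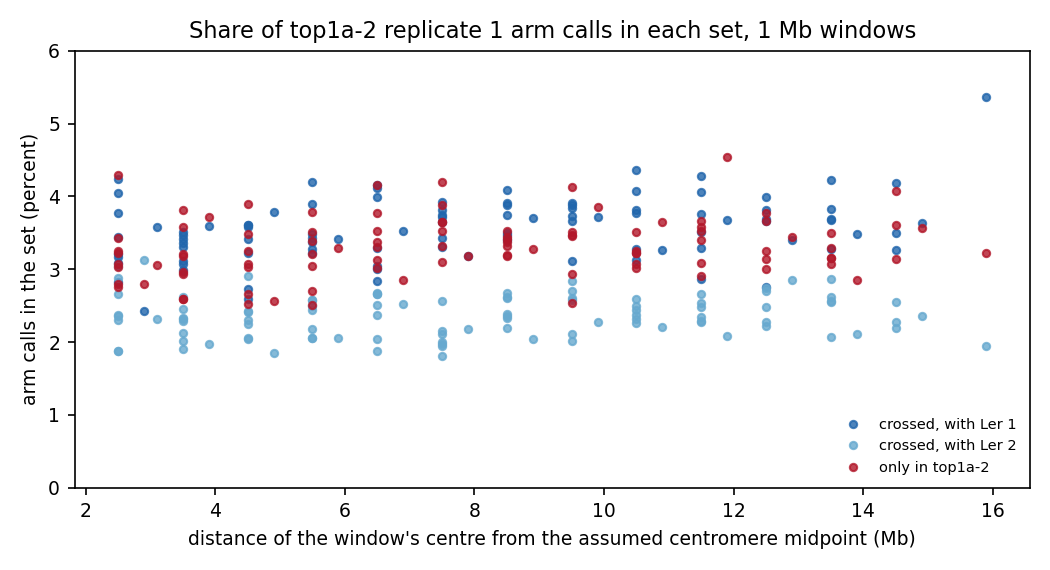
Points give, for 97 windows of 1 Mb on the arms, the percent of top1a-2 replicate 1 calls that were members or belonged to a crossed pairing, against the distance (Mb) of the window from the assumed centromere midpoint. Members ran from 2.52% to 4.55% and lay between the crossed pairings in 67 of the windows.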

How the data were processed

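The authors deposited 1 list of nucleosome calls for each of the 4 libraries, made from DNA of mononucleosome length cut from a gel and sequenced on an Illumina HiSeq2000, per the labels' protocols. Per the file headers, each call comes with its position, its fuzziness and size in bp, a confidence score and votes of either strand. The score and the votes are the deposited values of the caller, and neither their scaling nor the caller, aligner or genome build is given in the sources used here. The last calls lay 356 to 439 kb before the last gene of the TAIR10.1 gene table, so that table was not used for positions and no gene is named.

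Distances between calls were computed from the positions (Python 3.11.15, numpy 2.4.6, pandas 2.3.3). A partner was a call within 20 bp, and absence meant no call within 73 bp. The selection was tested on simulated lists in 3 runs and recovered 540 of 540 planted calls, with 0 differences from a direct count. With all 4 libraries in the rule and 2 against 2, where an exact permutation test cannot go below p = 0.333, no test was made. The members, the classes and the rule for the examples (the 5 members with the highest lower score, the 3 longest runs and the 3 windows of 100 kb with the largest excess) were chosen with earlier results of these data known. Windows of 1 Mb and 100 kb were kept with at least 1000 and 100 arm calls. Alternatives were other windows, lists, scores, sizes and arms, and leaving out each library.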

Additional observations from a re-analysis of the deposited data

How the results depend on the processing

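No paired analysis was possible because the result comes from no test; the pairing by replicate number is itself the crossed pairing with Ler replicate 1. Of 49 alternatives, 39 stayed within 1.5 times of the count or within the SD of the crossed pairings, and 10 moved. The number of members (9136) was 4849 with partners within 10 bp, 14610 with absence judged within 50 bp and 5337 within 100 bp, which follows from a stricter or looser rule. Leaving out a library also loosens the rule and gave from 18869 (Ler replicate 2 left out) through 22193 (Ler replicate 1) and 61800 (top1a-2 replicate 1) to 67456 (top1a-2 replicate 2). In all 8 alternatives with positions from top1a-2 replicate 1, the members stayed between the crossed pairings, and their ratio to the mean, 1.12, ran from 1.09 to 1.14. With positions from top1a-2 replicate 2 the ratio was 1.36, and the mutant pair stood above both pairings with Ler. This change still counts among the 39, because the SD of the ratio, 0.337, comes from only 2 crossed pairings and is wide. The median size minus that of the crossed pairings, -0.543 bp, was -0.901 bp with absence within 50 bp, -1.50 bp with positions from replicate 2 and -1.28 bp without the lowest 25% of scores; the cause was not tested. Unknown read depth limits every count.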

Other observations

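Inside the pericentromeric regions, which the rule leaves out, the same criteria were met by 1754 of the 59952 calls of top1a-2 replicate 1 (2.93%). The crossed pairings gave 1953 (3.26%) with Ler replicate 1 and 1401 (2.34%) with Ler replicate 2 there, so the order was that of the arms. The set called only in Ler gave 1512 of 59242 calls of Ler replicate 1 (2.55%), more than the 2.18% it gave on the arms.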
